A study of Mus musculus with 4 samples.

Results

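The knockout of OGT was examined in macrophages that had not received IL-4. The values were the FPKM of 1 OGT-KO library against 1 wild-type (WT) library, both labelled 0 h. FPKM is a fragment number scaled for transcript length and library size, so it is a level per length. Every protein-coding gene at 5 FPKM or more in either library was taken. That gave 6112 genes of the 52550 in the table, of which 21819 are protein-coding. The level was 5 FPKM or more in both libraries for 5545 of them, in WT alone for 377 and in the knockout alone for 190. Just outside the limit lay Tex10, at 4.9987 FPKM in WT and 3.94 in the knockout, and 597 genes of other types at 5 FPKM or more were left out. Differences are given as log2 of the ratio of FPKM + 1, knockout over WT. A pseudocount of 1 understates the differences of genes near 1 FPKM.

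The study measured mRNA in mouse bone marrow-derived macrophages of both genotypes before and after 24 h of the cytokine IL-4, which drives macrophages to the M2 state. M-CSF, which makes marrow cells become macrophages, had been given at 20 ng/mL for 7 days beforehand. The groups were WT without IL-4, OGT knockout without IL-4, WT after 24 h of 20 ng/mL IL-4 and OGT knockout after the same 24 h, with 1 library each. All 4 samples carry the same IL-4 treatment tag, so the absence of IL-4 at 0 h rests on the time label. How Ogt was deleted, the part deleted, any Cre driver, the strain and the number of animals: none of these is given in the sources used here. With 1 library a group there is no replicate error and no test, so each difference is one between 2 libraries and not between genotypes.

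OGT is the enzyme that joins a single N-acetylglucosamine sugar to serine and threonine residues of nuclear, cytoplasmic and mitochondrial proteins. A second enzyme, OGA, removes it, and the donor of the sugar, UDP-GlcNAc, comes from the hexosamine pathway, which draws on glucose, glutamine, acetyl-CoA and UTP. Known carriers of this mark include nuclear pore proteins, RNA polymerase II, transcription factors and signalling kinases, and in macrophages the mark has been studied in inflammatory and metabolic signalling.

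The 4 libraries were close in depth. At 1 FPKM a 2 kb transcript stood for an estimated 44.1 fragments (WT) or 40.4 (knockout) at 0 h, and for 42.8 or 40.9 at 24 h. Genes with a mitochondrial symbol took 6.28% of summed FPKM in the WT library at 0 h and 7.47% in the knockout library. Xist was at 63.9 and 54.2 FPKM, and the Y-linked genes Ddx3y, Kdm5d, Eif2s3y and Uty were at 0 in all 4 libraries. Defining macrophage genes were high in both 0 h libraries. Csf1r, the M-CSF receptor, stood at 760 FPKM in WT and 885 in the knockout. Adgre1, which encodes F4/80, stood at 1149.5 and 1027, and Cd68 at 1009 and 992.

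Ogt was present in the knockout at about the same share of WT in both pairs. At 0 h it stood at 27.4 FPKM in WT and 14.2 in the knockout, against 29.8 and 14.5 at 24 h (log2 −0.90 and −0.99). A gene-level value counts all exons, so a transcript without the deleted part would still be counted. Mgea5, the gene of OGA in this annotation, was lower, at 31.4 and 14.9 FPKM at 0 h and 23.4 and 10.6 at 24 h (−1.03 and −1.08). In both pairs the knockout had the low value of both genes. With the libraries rescaled by their median ratio, the 0 h difference of Mgea5 was −0.99, just under 2-fold. The other 9 members of the O-GlcNAc and hexosamine list lay nearer to WT. Nagk, the kinase that salvages N-acetylglucosamine, was at 12.8 and 9.18 FPKM (−0.44). Gfpt1, the first enzyme of the hexosamine pathway, was at 5.001 and 5.46 (0.11), and Uap1, the last, at 4.74 and 5.93 (0.27). Over the 11 members, 1 was 2-fold lower and the median was −0.14, beside −0.04 for all 6112 genes, and it turned to 0.017 over the 8 members that overlap no other gene.

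Most genes differed little between the libraries. Of the 6112, 5800 (94.9%) lay within 1.5-fold, and the middle 50% of differences ran from −0.17 to 0.11. At 2-fold, 41 genes (0.671%) were higher in the knockout and 48 (0.785%) were lower. With 5 FPKM required in both libraries, 20 were higher and 24 lower. The rest of the 41 and 48 passed the floor only through the library in which they are high. Among them were Clmp, Hist2h2aa1, B3gnt2, Ifit1bl1, Apoc1, Cx3cr1, Cxcl10, Bid, Ldah, Fabp3, Gclm, Mmp9 and Ppbp. With a pseudocount of 5 the numbers were 14 and 17. At 1.5-fold, a second threshold added after the values were seen, 145 (2.37%) were higher and 167 (2.73%) lower. Values above 0 were held by 2617 genes (42.8%) and values below 0 by 3495 (57.2%). This split depends on scaling: with the libraries rescaled by their median ratio, 3178 genes (52.0%) lay above 0. The share past 2-fold was 1.64% of genes with a 0 h mean under 10 FPKM, 1.99% at 10 to 20 FPKM and 0.270% over 100 FPKM. Just inside the 2-fold limit were Ropn1l at 1.01 and Prg2 at −1.01, and just outside it were Lrrc47 at 0.99 and Spp1, at 505 and 252 FPKM.

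**Figure D1:**
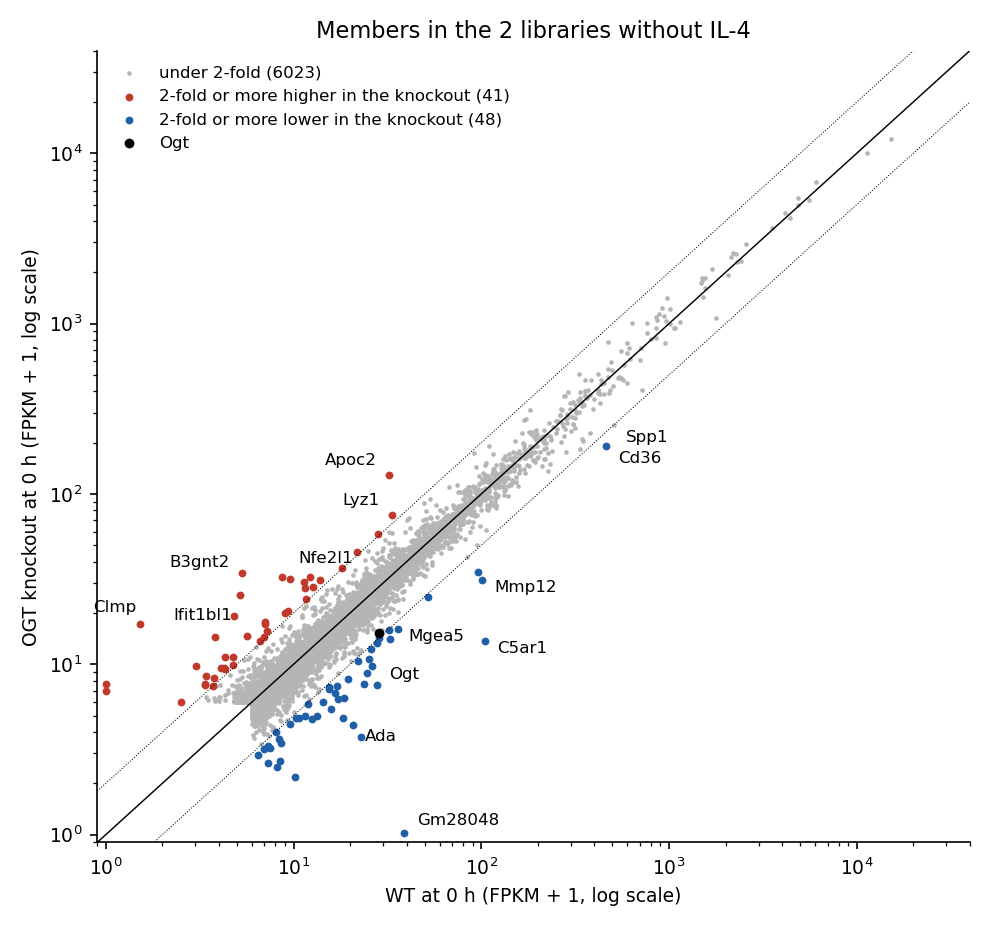
Each point is 1 of the 6112 genes, with FPKM + 1 in WT at 0 h on the x axis and in the OGT knockout at 0 h on the y axis, both on log scales; the solid line marks equal values and the dotted lines 2-fold. The 41 higher genes (red) and 48 lower genes (blue) lie mostly under 100 FPKM, and Cd36 is the 1 gene with a mean over 100 FPKM that lies past 2-fold.

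The largest difference among the higher genes was that of Clmp. Clmp, which encodes an adhesion molecule of tight junctions (chr9:40685962-40785319, + strand, GRCm38), was at 0.523 FPKM in WT and 16.2 in the knockout, and at 0.241 and 0.884 at 24 h. The log2 difference was 3.49 at 0 h, and the knockout library at 0 h alone was high. Apoc2, the activator of lipoprotein lipase (chr7:19671579-19677941, − strand), was at 31.3 and 128 FPKM at 0 h and 6.64 and 23.2 at 24 h (1.99 and 1.66). Its neighbour Apoc1, a small apolipoprotein (chr7:19689481-19692660, − strand), was at 3.79 and 18.2, then 0.954 and 3.85 (2.00 and 1.31). Both apolipoprotein genes were higher in the knockout in each pair. Nfe2l1, a transcription factor best known for raising proteasome genes (chr11:96817414-96829968, − strand), was at 8.56 and 30.6 FPKM at 0 h and 11.5 and 33.4 at 24 h (1.73 and 1.46). The 2 knockout libraries thus stood above both WT libraries.

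Several further genes of this group repeated their direction at 24 h. Colec12, a collectin-type scavenger receptor, was at 10.3 and 29.6 FPKM at 0 h and at 5.09 and 18.7 at 24 h (1.43 and 1.69). Pcp4l1, a relative of the calmodulin regulator gene Pcp4, was at 11.2 and 31.6, then 3.54 and 9.05 (1.42 and 1.15). Fabp3, a fatty acid-binding protein gene, was at 4.63 and 13.6, then 3.64 and 8.37 (1.38 and 1.02). All 3 were 2-fold higher in the knockout at both times.

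Others did not. Zbtb22, a zinc finger gene, was at 2.84 and 13.4 FPKM at 0 h (1.91) and at 14.03 and 12.1 at 24 h (−0.19). Pttg1ip, the gene of a securin-binding protein, was at 7.71 and 31.5 (1.90), then 40.6 and 43.7 (0.10). Vma21, an assembly factor of the vacuolar proton pump, was at 2.04 and 8.72 (1.68), then 7.36 and 7.88 (0.09). Mis12, a kinetochore gene, was at 3.30 and 10.03 (1.36), then 12.8 and 9.96 (−0.33). In these 4 genes WT at 0 h was the low library, and the other 3 libraries lay within 1.5-fold of one another. Rnf6, a RING ubiquitin ligase gene, was at 6.09 and 16.7 FPKM at 0 h (1.32) but at 15.96 and 6.86 at 24 h (−1.11). Hist2h2aa1, an H2A histone gene with a near-identical copy, was listed at 0 in the WT library and at 6.71 in the knockout library without IL-4, and at 9.36 and 5.56 with it.

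C5ar1 led the lower genes once predicted genes were left out. It encodes the receptor of complement fragment C5a (chr7:16246743-16259540, − strand) and was at 104 and 12.7 FPKM at 0 h (−2.94), and at 49.9 and 41.7 at 24 h (−0.25). The knockout at 0 h was the low library of the 4. Ada, the adenosine deaminase that turns adenosine into inosine (chr2:163726584-163750239, − strand), was at 19.6 and 3.42 FPKM at 0 h and 8.92 and 2.08 at 24 h (−2.22 and −1.68). Both knockout libraries lay below both WT libraries. Mamdc2, which encodes a secreted matrix protein, was at 26.8 and 6.57, then 5.36 and 2.30 (−1.87 and −0.95). Ppbp, a platelet chemokine precursor gene, was at 14.9 and 4.47, then 6.97 and 2.498 (−1.54 and −1.19). Scamp4, a gene of secretory carrier membranes, was at 6.33 and 1.64, then 12.3 and 3.92 (−1.48 and −1.44). Scamp4 shares exons with Gm49322 on the same strand, which ran the other way at 1.11 and 2.67, then 0.911 and 5.90, and the summed estimated fragments of both at 0 h were 72.4% of WT, within 1.5-fold. Mamdc2 and Ppbp had the lower value in the knockout in each pair.

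The lower genes also held regulators that ran the other way after IL-4. Plagl2, a zinc finger transcription factor, was at 21.8 and 2.74 FPKM at 0 h (−2.60) and at 1.74 and 9.32 at 24 h (1.91). Zfp62, another zinc finger gene, was at 9.13 and 1.17 (−2.22), then 1.32 and 7.02 (1.79). Crk, an SH2 and SH3 adaptor of receptor signalling, was at 22.6 and 6.64 (−1.63), then 8.96 and 24.9 (1.38). For all 3, WT at 0 h and the knockout at 24 h were the high libraries. Cipc, a repressor of the circadian CLOCK protein, was at 17.3 and 3.82 (−1.93), then 8.87 and 9.81 (0.13). Rgs1, which ends G-protein signalling, was at 7.12 and 1.4997 (−1.70), then 2.996 and 2.83 (−0.06). Zfx, an X-linked zinc finger factor, was at 7.44 and 1.72 (−1.63), then 6.05 and 6.25 (0.04). The 0 h differences of Cipc, Rgs1 and Zfx were not seen in the 24 h pair.

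**Figure D2:**
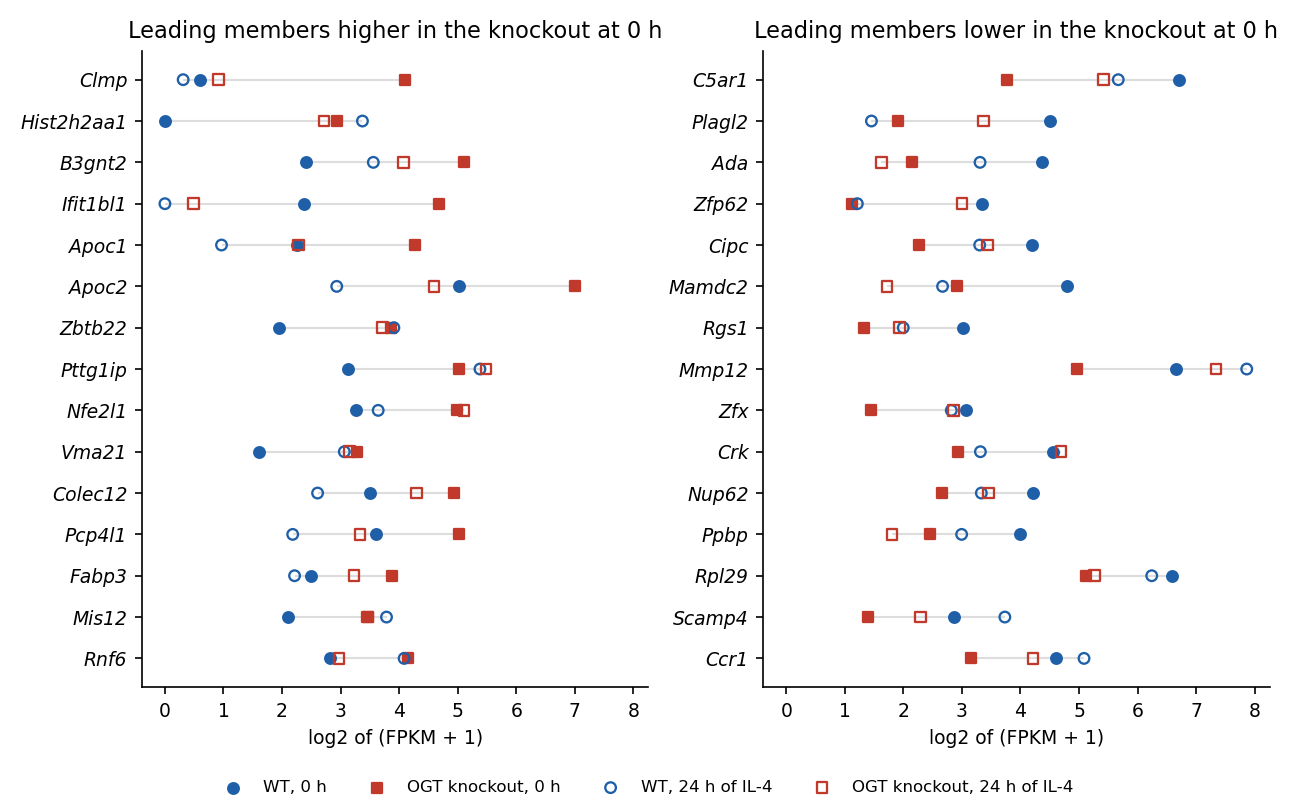
The 15 genes with the largest differences in each direction, predicted genes left out, with log2 of (FPKM + 1) on the x axis in all 4 libraries; circles are WT, squares the OGT knockout, filled symbols 0 h and open symbols 24 h of IL-4. Apoc1, Apoc2, Nfe2l1, Colec12, Pcp4l1 and Fabp3 on the left and Ada and Ppbp on the right are past 2-fold in the same direction at both times.

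Overlap with other genes touched some of these values. Exons of 37 of the 89 genes past 2-fold overlapped exons of another gene, 48.8% of the higher and 35.4% of the lower genes, beside 36.4% of all 6112. The overlapping gene was at 1 FPKM or more in some library for 18 of them, and for 5 it lay past 1.5-fold in the opposite direction. One pair was extreme. B3gnt2, which extends N-acetyllactosamine chains with UDP-GlcNAc (chr11:22759738-22860961, − strand), was at 4.34 and 33.4 FPKM at 0 h (2.69). Gm28048, a predicted gene on the same strand that shares its exons, was at 37.8 in WT and 0.0192 in the knockout (−5.25), and at 0 in both 24 h libraries. Their summed estimated fragments were 2691 in WT and 2814 in the knockout, 105% of WT. The values for each alone depend on how fragments were divided between them, as they do for Ifit3 with Ifit3b and Lyz1 with Lyz2, which are near-identical copies.

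One library alone stood apart for 31 of the 89 genes, the other 3 being within 1.5-fold of one another. It was WT at 0 h for 15 genes, 10 of them higher and 5 lower in the knockout. It was the knockout at 0 h for 16 genes, 5 of them higher and 11 lower. Eif4h, Dpy30 and Tmem70 were among the former, and Gclm, Plau, Qdpr, Foxp1 and Orai1 among the latter. Without these 31 genes, 26 were 2-fold higher and 32 were 2-fold lower.

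Interferon-stimulated genes had the highest median of the 40 pathway lists. These genes are switched on by type I or type II interferon, in large part through interferon regulatory factors, and restrict viruses or present their antigens. Of 84 members, 5 were 2-fold higher and 16 were 1.5-fold higher, beside 0.671% and 2.37% of all genes. Ifit1bl1 and Cxcl10 among the 5, and Cgas among the 16, reached 5 FPKM in the knockout alone. The floor thus kept them through the library in which they are high. None was lower at either threshold, and 74 lay above 0, beside 42.8% of all genes. The median was 0.33, beside −0.04 for all genes. The list was chosen with earlier results of these data known, so its direction is a description of these 2 libraries.

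The promoters of 3 of the 5 genes past 2-fold held an interferon response element, which interferon regulatory factors are known to bind. It was searched as GAAA, any 2 bases and GAAA again (TTTC, any 2 bases and TTTC on the other strand). Both strands were searched in the RefSeq windows from 250 bases before to 50 after each gene start (GRCm38.p6), and 4912 of the 6112 genes (80.4%) matched a window. The 3 windows with a match are shown because they belong to the genes past 2-fold, each 5′ to 3′ on the gene's strand, with the match in capitals.
Cxcl10 (chr5:92348840-92349139, − strand): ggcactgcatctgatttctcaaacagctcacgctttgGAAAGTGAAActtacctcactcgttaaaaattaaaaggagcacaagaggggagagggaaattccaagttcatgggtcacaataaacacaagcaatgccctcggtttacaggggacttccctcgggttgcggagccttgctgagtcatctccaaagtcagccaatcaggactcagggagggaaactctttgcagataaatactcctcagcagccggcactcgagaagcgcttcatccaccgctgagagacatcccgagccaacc
Rsad2 (chr12:26456403-26456702, − strand): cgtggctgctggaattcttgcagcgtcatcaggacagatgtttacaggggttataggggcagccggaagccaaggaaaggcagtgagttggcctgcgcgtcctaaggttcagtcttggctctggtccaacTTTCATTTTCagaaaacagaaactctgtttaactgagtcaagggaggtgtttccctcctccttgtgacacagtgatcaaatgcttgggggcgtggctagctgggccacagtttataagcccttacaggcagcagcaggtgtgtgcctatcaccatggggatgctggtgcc
Ifit1bl1 (chr19:34601919-34602218, − strand): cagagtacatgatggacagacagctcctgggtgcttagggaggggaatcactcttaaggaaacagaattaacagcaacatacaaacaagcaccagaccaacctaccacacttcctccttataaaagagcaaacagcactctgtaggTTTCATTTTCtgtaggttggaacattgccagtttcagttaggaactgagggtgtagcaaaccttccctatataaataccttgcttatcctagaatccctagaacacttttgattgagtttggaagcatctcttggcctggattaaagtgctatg

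The match began at position −213 from the start in Cxcl10, −120 in Rsad2 and −104 in Ifit1bl1. The windows of Cmpk2 and Xaf1 held no such letters. The element was found in 3.45% of the 32544 different windows in the table, in 3.87% of the 4912 windows of members and in 35 of 68 windows (51.5%) of the interferon list. Within the list it was in 10 of 14 windows (71.4%) of genes past 1.5-fold and in 25 of 54 (46.3%) of the others. The median difference was 0.37 with the element and 0.24 without. A match is a description of the letters and does not show that a factor binds there.

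The antiviral effectors held 4 of the 5 genes past 2-fold. Ifit1bl1, a relative of the Ifit genes whose proteins bind foreign RNA, was at 4.20 FPKM in WT and 24.5 in the knockout (2.30), and was listed at 0 and 0.406 at 24 h. Cmpk2, a mitochondrial nucleotide kinase gene, was at 12.9 and 30.3 (1.17), then 2.94 and 3.56 (0.21). Rsad2, which encodes viperin, was at 27.1 and 57.2 (1.05), then 2.89 and 4.06 (0.38). Cmpk2 and Rsad2 lie 12752 bases apart on chromosome 12. Xaf1, a pro-apoptotic gene, was at 11.7 and 27.5 (1.16), then 3.41 and 6.92 (0.84). All 4 were low at 24 h in both genotypes. Below 2-fold, Ifit2 was at 90.4 and 173 FPKM (0.93), Ifit3 at 180 and 309 (0.78), Ifit1 at 29.7 and 53.0 (0.81) and Mx1, a dynamin-like antiviral GTPase gene, at 32.3 and 58.4 (0.84). The 42 antiviral effectors had 38 values above 0 and a median of 0.34. Oasl2 lay on the other side, at 45.1 and 32.8 (−0.45), as did Slfn8 at 44.7 and 32.9 (−0.43).

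The chemokine and p200 group held the other gene past 2-fold. Cxcl10, a ligand that draws T cells, was at 3.11 FPKM in WT and 8.52 in the knockout (1.21), and at 0.257 and 0.204 at 24 h. All 9 members of that group lay above 0 (median 0.44), among them the DNA sensor relatives Ifi211, at 105 and 151 (0.51), and Ifi205, at 9.10 and 14.4 (0.61). All 12 guanylate-binding and related GTPases, which act on the vacuoles of intracellular pathogens, lay above 0 (0.38). They were led by Gbp2 at 23.9 and 45.3 FPKM (0.89) and Gbp3 at 11.9 and 20.6 (0.74).

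The factors and sensors that control these genes lay nearer to WT. Irf7 was at 50.5 and 54.5 FPKM (0.11), Irf1 at 31.5 and 31.6 (0.00) and Ifnar1, a chain of the type I interferon receptor, at 30.0 and 26.7 (−0.16). The 21 members of this group had a median of 0.12. The largest values were those of the nucleic acid sensors Cgas, at 2.78 and 5.31 (0.74), and Zbp1, at 18.5 and 29.3 (0.64). At 24 h the 84 interferon genes had a median of −0.01, beside −0.03 for all genes. The Ifit genes were positive there, for example 0.90 for Ifit3 and 0.67 for Ifit1, at levels of 9.12 FPKM or less.

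Genes of antigen presentation had positive medians without a gene past 2-fold. MHC class II molecules show peptides to helper T cells, and 10 of 11 members lay above 0, beside 42.8% of all genes. The median of these members was 0.28, and 0.45 at 24 h. H2-DMa, which loads peptides onto class II, was at 40.2 and 71.2 FPKM (0.81) and was the 1 member past 1.5-fold. Cd74, the invariant chain, was at 974 and 1422 (0.55), H2-Ab1 at 290 and 394 (0.44) and their transactivator Ciita at 7.53 and 9.97 (0.36). The protease gene Ctsl was the member below 0, at 108 and 79.9 (−0.43). In the class I list 18 of 24 members lay above 0, beside 42.8% of all genes, with a median of 0.15. Its transactivator Nlrc5 was at 8.39 and 11.6 (0.42) and the immunoproteasome gene Psmb10 at 27.5 and 33.8 (0.29), while the class I light chain gene B2m was at 3544 and 3663 (0.05). At 24 h the class I median was −0.11.

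Fc receptors bind antibody-coated particles. Of 15 genes of these receptors and their signalling, 3 were 1.5-fold higher, beside 2.37% of all genes, and none was lower at either threshold. Above 0 lay 10, beside 42.8% of all genes, and the median was 0.13. The inhibitory receptor gene Fcgr2b was at 52.3 FPKM in WT and 92.1 in the knockout (0.80), Fcgr4 at 167 and 272 (0.70) and the high-affinity receptor gene Fcgr1 at 172 and 273 (0.66). Fcgr1 was also at 35.7 and 55.7 at 24 h (0.63). Itgax, which encodes CD11c, was lower at 0 h, at 35.1 and 15.1 (−1.16), and was at 355 and 353 at 24 h (−0.01). Among the 46 members of this list 0 were 2-fold higher and 1 was lower, 4 were 1.5-fold higher, and the median was 0.00.

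The lipoprotein and sterol genes differed unevenly. Of 23 members of the Apoe-Apoc and sterol efflux list, 2 were 2-fold higher, Apoc1 and Apoc2, beside 0.671% of all genes. None was lower, and the median was 0.05. At 0 h Apoc1 reached 5 FPKM in the knockout alone, so the floor kept it through the library in which it is high. Apoe, whose gene lies in the same cluster, was at 4407 and 4176 FPKM (−0.08), then 2125 and 3381 (0.67). Pltp, the phospholipid transfer protein gene, was at 473 and 782 (0.72), then 230 and 417 (0.85). Cd5l, a secreted macrophage protein gene, was at 115 and 171 (0.57), then 51.1 and 96.4 (0.90). Both are known targets of the sterol-sensing LXR receptors. The LXR alpha gene Nr1h3 itself was at 17.7 and 11.7 (−0.56) and the cholesterol exporter gene Abca1, a further LXR target, at 127 and 119 (−0.09).

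Fatty acid genes included values on both sides. Cd36, a receptor for long-chain fatty acids and oxidised lipoprotein, was at 459 FPKM in WT and 189.5 in the knockout (−1.27), and at 789 and 447 at 24 h (−0.82). Fabp3 was higher, as above, while its relatives Fabp4, at 32.2 and 28.8 (−0.16), and Fabp5, at 282 and 274 (−0.04), lay near WT. Ldah, a lipid droplet hydrolase gene, was at 2.37 and 6.61 (1.17), then 2.66 and 7.34 (1.19). At 0 h Fabp3 and Ldah reached 5 FPKM in the knockout alone. Among 27 members of the list 2 were 2-fold higher and 1 was lower, with a median of −0.12. The cholesterol synthesis list, with 21 members, had none past 2-fold and a median of −0.07.

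Receptors of chemoattractants were mixed, with C5ar1 and Ccr1 lower and Cx3cr1 higher. Ccr1, a receptor of CC chemokines such as Ccl3, was at 23.5 FPKM in WT and 7.92 in the knockout (−1.46), and at 32.9 and 17.5 at 24 h (−0.87). Cx3cr1, the fractalkine receptor gene, was at 1.51 and 5.003 (1.26), and at 0.147 and 0.173 at 24 h. Cx3cr1 reached 5 FPKM in the knockout alone, so the floor kept it through the library in which it is high. The others among the 22 members were under 2-fold, including Fpr1, the formyl peptide receptor gene, at 27.0 and 20.4 FPKM (−0.39). The median was −0.09. Of 9 chemokine ligands, Cxcl10 was higher and Ppbp lower. At 0 h Cxcl10 reached 5 FPKM in the knockout alone and Ppbp in WT alone. Pf4, a platelet chemokine, was at 82.6 and 41.5 (−0.97) and Ccl6 at 227 and 136 (−0.73), while Ccl9 was at 159 and 162 (0.03).

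Secreted proteases made up most of the lower genes of the matrix list. Of its 38 members, 4 were 2-fold lower and 8 were 1.5-fold lower, beside 0.785% and 2.73% of all genes. None was 2-fold higher, 2 were 1.5-fold higher, and the median was −0.18, with 0.02 at 24 h. Mmp12, macrophage elastase, was at 100.3 FPKM in WT and 30.4 in the knockout (−1.69), and at 232 and 161 at 24 h (−0.52). Plau, urokinase, was at 31.8 and 13.01 (−1.23), then 36.4 and 36.5 (0.00). Mmp9, gelatinase B, was at 10.5 and 3.98 (−1.21), then 3.38 and 1.92 (−0.59), and F13a1, the coagulation factor XIII A chain gene, at 16.1 and 6.49 (−1.19), then 6.41 and 3.81 (−0.62). The knockout at 0 h was lower for all 4 genes. Just under 2-fold was Spp1, osteopontin, at 505 and 252 (−0.9994). Cst3, an inhibitor of cysteine proteases, was on the other side at 632 and 1012 (0.68), then 596 and 1081 (0.86). Mmp8, Mmp9 and F13a1 are also markers of neutrophils, osteoclasts and monocytes, and those marker lists summed to 64.8%, 65.0% and 61.6% of WT. These sums include those genes, and Chil3 was most of the monocyte sum and Atp6v0d2 most of the osteoclast sum. Mmp8 and Mmp9 reached 5 FPKM in WT alone at 0 h, so the floor kept them through the library in which they are high.

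Several genes known for induction by IL-4 had low values in the knockout in cells that had not received it. Of 20 members of the IL-4 list, 2 were 2-fold lower and 6 were 1.5-fold lower, beside 0.785% and 2.73% of all genes. None was higher at either threshold, and the median was −0.20. Ear2, an eosinophil-type ribonuclease gene, was at 13.4 FPKM in WT and 4.99 in the knockout (−1.27), then 206 and 168 (−0.29). Egr2, a transcription factor of macrophage activation, was at 9.69 and 3.83 (−1.15), then 61.1 and 14.1 (−2.04). Chil3, a chitinase-like protein gene and monocyte marker, was at 334 and 182 (−0.87), then 1738 and 1164 (−0.58). The lectin gene Mgl2 was at 5.06 and 2.86 (−0.65). Ear2, Egr2 and Mgl2 reached 5 FPKM in WT alone, so the floor kept them through the library in which they are high. The list's median was −0.065 among the 15 members at 5 FPKM or more in both libraries and −0.52 without members that overlap another gene. Stat6, the factor through which IL-4 acts, was at 51.9 and 51.1 (−0.02) and Il4ra at 34.4 and 32.6 (−0.08). Arg1 and Retnla were under 5 FPKM in both libraries without IL-4.

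The C-type lectins, 11 receptors that bind glycans, had 9 values below 0, beside 57.2% of all genes, and a median of −0.36. None was past 2-fold, and 1, Mgl2, was past 1.5-fold. Clec4d was at 217 and 160 FPKM (−0.44) and Clec4a2 at 86.2 and 58.8 (−0.54). In the scavenger and phagocytic list that contains them, Colec12 was higher and Cd36 lower among 33 members. Msr1, the class A scavenger receptor gene, was at 23.7 and 14.97 (−0.63) and Marco at 32.6 and 44.7 (0.44).

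Among antioxidant genes of the NRF2 type, 26 of 37 lay below 0, beside 57.2% of all genes. These genes make and use glutathione and thioredoxin and are known to be raised by the transcription factor NRF2. At 2-fold 2 were lower (0.785% of all genes), at 1.5-fold 6 were lower (2.73%), none was higher at either threshold, and the median was −0.17. Gclm, the modifier subunit of the first glutathione synthesis enzyme, was at 7.59 FPKM in WT and 2.47 in the knockout (−1.31), but at 6.53 and 6.47 at 24 h (−0.01). At 0 h Gclm reached 5 FPKM in WT alone. Gstp1, a glutathione transferase gene with a near-identical copy, was at 18.5 and 7.21 (−1.25), then 19.6 and 8.56 (−1.11). Prdx1, a peroxiredoxin gene, was at 380 and 227 (−0.74), Gsr, glutathione reductase, at 37.2 and 23.03 (−0.67) and Txnrd1, thioredoxin reductase, at 23.6 and 15.1 (−0.62). Srxn1, which repairs oxidised peroxiredoxins, was at 31.5 and 20.3 (−0.61) and, at 24 h, at 55.9 and 9.08 (−2.50). The antioxidant response element TGACNNNGC, searched on both strands, was in 6 of 32 promoter windows of the list (18.8%) and in 742 of 4912 of members (15.1%).

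Beside the higher value of Nfe2l1, its relatives and the proteasome genes lay near WT. Nfe2l2, which encodes NRF2, was at 79.0 FPKM in WT and 65.6 in the knockout (−0.26), Bach1, a repressor at the same sites, at 35.2 and 41.2 (0.22), and Sel1l, a part of the degradation machinery of the endoplasmic reticulum, at 21.5 and 16.1 (−0.40). None of 40 proteasome subunit and assembly genes was past 1.5-fold in either direction, 17 lay above 0, and the median was −0.04. The extremes were Pomp, an assembly factor, at 13.5 and 16.6 (0.28) and Psmg4 at 16.5 and 11.8 (−0.45).

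Purine, iron and lysosome genes differed in single members. In the purine list Ada was the 1 gene past 2-fold of 26 (median 0.03). Pnp2, a purine nucleoside phosphorylase with a near-identical copy, was at 12.9 and 22.8 FPKM (0.77) at 0 h and at 10.4 and 0.152 at 24 h. Aprt, which salvages adenine, was at 23.7 and 16.7 (−0.48). Among 26 iron and heme genes, Flvcr1, a heme exporter gene, was higher at 6.06 and 16.3 (1.29), and the median was −0.13. The transferrin gene Trf was at 332 and 503 (0.60) and the receptor gene Tfrc at 35.2 and 22.8 (−0.60). Of 89 lysosome genes none was past 2-fold, 3 were 1.5-fold higher and 3 lower, with a median of −0.04. The hydrolase genes Gusb, at 109 and 191 (0.80), and Naglu, at 13.2 and 22.5 (0.73), lay on one side and Glb1, at 25.4 and 15.1 (−0.72), and Acp5, at 12.7 and 7.27 (−0.73), on the other.

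In the cell death list, 1 of 41 genes was 2-fold higher and the median was 0.08. Bid, a BH3 gene of the mitochondrial pathway, was at 3.75 FPKM in WT and 10.0 in the knockout (1.22), and at 7.70 and 3.59 at 24 h (−0.92). At 0 h Bid reached 5 FPKM in the knockout alone. Bcl2a1b, an antiapoptotic gene with near-identical copies, was at 93.7 and 48.9 (−0.92), then 106 and 60.8 (−0.79). NF-κB and early-response genes had a median of −0.03 over 46 members, of which Egr2 alone was past 2-fold. Tnfaip3, an inhibitor of NF-κB, was at 7.58 and 4.06 (−0.76), Tnf at 6.71 and 4.49 (−0.49) and the nuclear receptor gene Nr4a1 at 2.88 and 6.41 (0.93). The 30 Toll-like receptor pathway genes had a median of 0.00, with none past 2-fold. Cyp4f18, which degrades leukotriene B4, was higher in the eicosanoid list at 10.7 and 23.1 (1.04), and Hpgd, which inactivates prostaglandins, was at 25.1 and 41.2 (0.70).

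Of 85 ribosomal protein genes, 67 lay below 0, beside 57.2% of all genes, and the median was −0.13 beside −0.04, with −0.28 at 24 h. With the libraries rescaled by the median ratio, 24 in place of 18 lay above 0 and the median was −0.08. Rpl29, a large-subunit gene, was lower at 95.5 FPKM in WT and 33.7 in the knockout (−1.48), and at 74.7 and 37.3 at 24 h (−0.98). Rpl36a-ps1, annotated as protein-coding and a near copy of Rpl36a, was at 21.1 and 9.41 (−1.09). No other member was past 2-fold.

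Energy genes were near WT. None of 86 oxidative phosphorylation genes was past 2-fold or 1.5-fold and the median was −0.04, although all 13 mitochondrially encoded members lay above 0 (median 0.29). None of 53 glycolysis, pentose phosphate and TCA cycle genes was past 2-fold and the median was −0.10. The largest values there were those of Acadvl, an enzyme of fatty acid oxidation, at 17.2 and 9.87 FPKM (−0.74), Ldhb at 11.1 and 6.66 (−0.66) and Mdh1 at 49.4 and 31.9 (−0.62). Of 31 DNA replication and division genes none was past 2-fold and 2 were 1.5-fold lower. Its division genes had a median of −0.28, with Mki67, a marker of cycling cells, at 8.83 and 5.59 (−0.58) and Stmn1 at 14.4 and 8.58 (−0.68).

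Machinery lists mostly had no gene past 2-fold. That held for 66 unfolded protein response and secretory genes (median −0.02), 51 splicing genes, 34 autophagy genes, 25 heat shock genes, 22 ATF4-type genes and 21 genes of OGT partners. Among the partners Hcfc1, the host cell factor that OGT is known to cleave, was at 16.4 and 24.3 FPKM (0.54) and Ncoa6 at 9.87 and 6.73 (−0.49). Single genes stood out in 3 further lists. Nup62, a nucleoporin of the central channel that carries much O-GlcNAc, was lower at 17.5 and 5.33 (−1.55) and at 9.07 and 9.93 at 24 h (0.12), and its exons overlap those of Atf5 and Il4i1. It was the 1 gene past 2-fold of 19 nuclear pore genes. Crk was the 1 of 59 actin genes and Eif4h, an initiation factor gene at 17.1 and 35.6 (1.01), the 1 of 42 translation genes. Of the 89 genes past 2-fold, 45 were in none of the lists or symbol families.

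**Figure D3:**
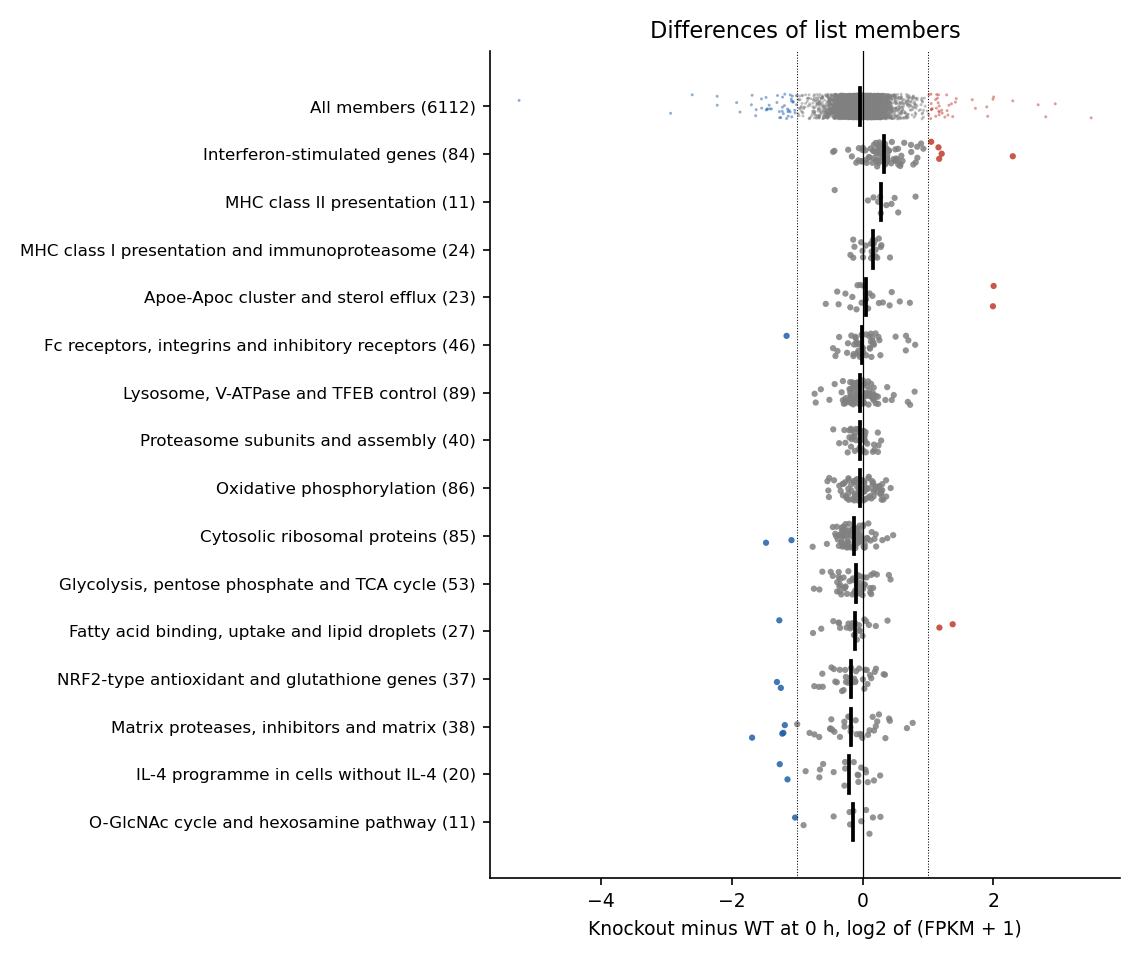
Each point is 1 gene, with its log2 difference between OGT knockout and WT at 0 h on the x axis and the gene lists on the y axis, with the number of members in brackets; black bars are medians, dotted lines mark 2-fold, and red and blue points are 2-fold higher and lower. The median is 0.33 for interferon-stimulated genes, 0.28 for MHC class II and −0.20 for the IL-4 list, beside −0.04 for all genes.

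Families read from gene symbols were close to all genes in most cases. None of the 34 Rab, 21 ubiquitin protease, 51 mitochondrial ribosomal or 35 DEAD-box genes was past 2-fold. Among 97 solute carriers 1 was lower, Slc25a51, the mitochondrial NAD carrier gene, at 9.35 FPKM in WT and 3.86 in the knockout (−1.09). All 5 histone genes at the floor or above lay above 0 (median 0.28), beside 42.8% of all genes, and 62 of the 67 histone genes were below the floor. The 1 past 2-fold, Hist2h2aa1, reached 5 FPKM in the knockout alone at 0 h and was at −0.66 at 24 h. In 24 ubiquitin-conjugating enzyme genes Ube2g2 was lower at 24.8 and 11.4 (−1.06), and in 48 RING finger genes Rnf6 was higher.

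Neighbouring genes past 2-fold were few. Among the 89 genes, 6 pairs of neighbours lay within 100 kb of each other. In 4 pairs both genes had the same direction, namely Rsad2 with Cmpk2, Apoc2 with Apoc1 (11540 bases apart), Tspyl3 with Plagl2 (2318 bases) and Pkig with Ada (426 bases). The other two, Pttg1ip with Ube2g2 (23543 bases) and B3gnt2 with Gm28048, which overlap, had opposite directions.

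Summed markers of other cells were below WT in the knockout at 0 h for 8 lists and above it for 3, namely B cells, endothelial cells and erythroid cells. The 14 neutrophil markers summed to 3439 FPKM in WT and to 2230 FPKM (64.8% of WT) in the knockout at 0 h. Of the 14, 13 were lower in value. For this and the counts below, 57.2% of the 6112 genes lay below 0, though marker lists also hold genes under 5 FPKM. S100a8 was at 721 and 408, Elane at 32.9 and 20.1, and Ly6g, a defining marker of mature neutrophils, at 0.651 and 0.238. The 10 monocyte markers summed to 434 and 268 (61.6%, 7 of 10 lower in value), and Ms4a4c among them ran the other way at 19.7 and 32.3. Most of the monocyte sum was Chil3, at 334 and 182, which is also in the IL-4 list. The 13 markers of mast cells, basophils and eosinophils summed to 42.6 and 18.9 (44.5%, 11 of 13), with Fcer1a and Cma1 at 0 in both. Prg2, an eosinophil granule protein gene at 27.7 and 13.3, was most of that sum, and 7 of the 13 were under 1 FPKM in both libraries. Of the 8 megakaryocyte and platelet markers, 6 were lower in value (49.8%), led by Pf4 and Ppbp. Markers of stromal fibroblasts summed to 33.4 and 19.4 (58.1%, 10 of 11), with 4 of the 11 under 1 FPKM in both libraries. At 24 h these 5 sums were 56.6% to 75.3% of WT.

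Macrophage markers did not shift together. Of 15, 7 were lower and 8 higher in value, and their sum was 88.0% of WT at 0 h and 100.2% at 24 h, with Lyz2 alone at 15193 and 12062 FPKM. B cell markers summed to 160 and 191 (119%), with Ighm at 119 and 152 the highest of them, while Ms4a1 and Pax5 were under 0.1 FPKM. The 8 endothelial markers summed to 8.06 and 11.1 (138%, all 8 higher in value, beside 42.8% of the 6112 genes). At 24 h they summed to 167% of WT. At 0 h 5 of the 8 were under 1 FPKM in both libraries, with Tek at 0 in WT. Erythroid markers summed to 1.58 and 1.70, and Klf1, Car1 and Hbb-bt were at 0 in both. T and NK cell markers summed to 27.2 and 20.1, mostly Cd4, and Klrb1c and Gzma were at 0 in both. In bulk RNA, fewer cells of a type and less RNA of these genes per cell cannot be told apart. Ppbp, Pf4, Prg2, F13a1, Retnlg, Mmp8, Mmp9 and Chil3 are themselves members of the marker lists. Their lower values are part of those sums by construction, and the part of other cells in them was not tested. The medians were also taken without the markers of neutrophils, monocytes, mast cells, basophils, eosinophils, megakaryocytes, platelets and stromal fibroblasts. Osteoclast markers, among them Mmp9, stayed in, as did those of dendritic, B, T and NK, endothelial and erythroid cells. The medians of 39 of 40 lists then moved by less than 0.1. Left were −0.11 for the matrix list, −0.14 for the IL-4 list and −0.17 for the antioxidant list. The exception was the chemokine ligands, at −0.07 with the removed markers and 0.03 without them.

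**Figure D4:**
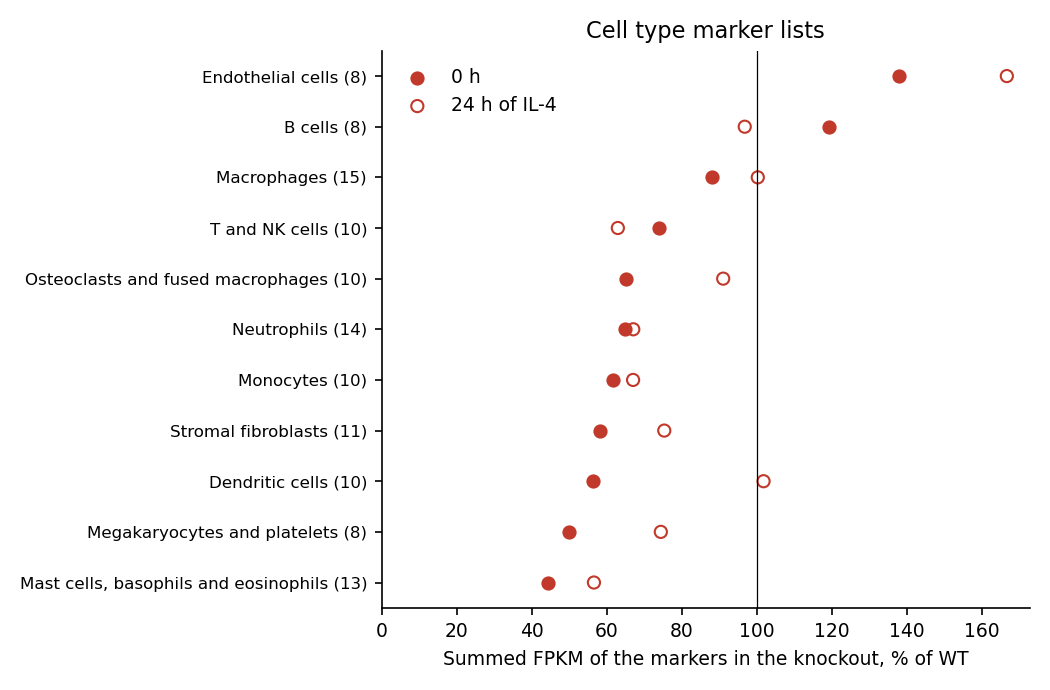
The x axis is the summed FPKM of each marker list in the OGT knockout as a percent of WT, with the number of markers in brackets on the y axis; filled circles are 0 h and open circles 24 h of IL-4. At 0 h the lists of mast cells, basophils and eosinophils (44.5%), megakaryocytes and platelets (49.8%) and neutrophils (64.8%) lie below the macrophage list (88.0%).

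The 24 h libraries gave the same contrast in cells treated with IL-4 and share no library with the 0 h pair. There, 39 of the 6112 genes (0.638%) were 2-fold higher in the knockout and 31 (0.507%) lower. Of the 41 genes higher at 0 h, 28 (68.3%) lay above 0 at 24 h, beside 42.6% of all genes, and 8 were again 2-fold higher. Those were Apoc1, Apoc2, Colec12, Fabp3, Ldah, Lyz1, Nfe2l1 and Pcp4l1. Lyz1, the lysozyme P gene and a near copy of Lyz2, was at 32.6 and 74.3 FPKM, then 10.3 and 31.3 (1.17 and 1.52). Of the 48 lower genes, 33 (68.8%) lay below 0 at 24 h, beside 57.3% of all genes, and 6 were again 2-fold lower, namely Ada, Egr2, Gstp1, Mgea5, Ppbp and Scamp4, the last with the overlap described. For 6 genes the difference was past 2-fold in the opposite direction. At the 1.5-fold threshold, 110 of 145 higher genes (75.9%) and 129 of 167 lower genes (77.2%) had the same sign. The direction at 0 h was thus shared by most but not all genes. How much of the shared or of the other differences is variation between cultures cannot be read from 1 library a group. The number of animals is not given, so whether the pairs are independent is not known.

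**Figure D5:**
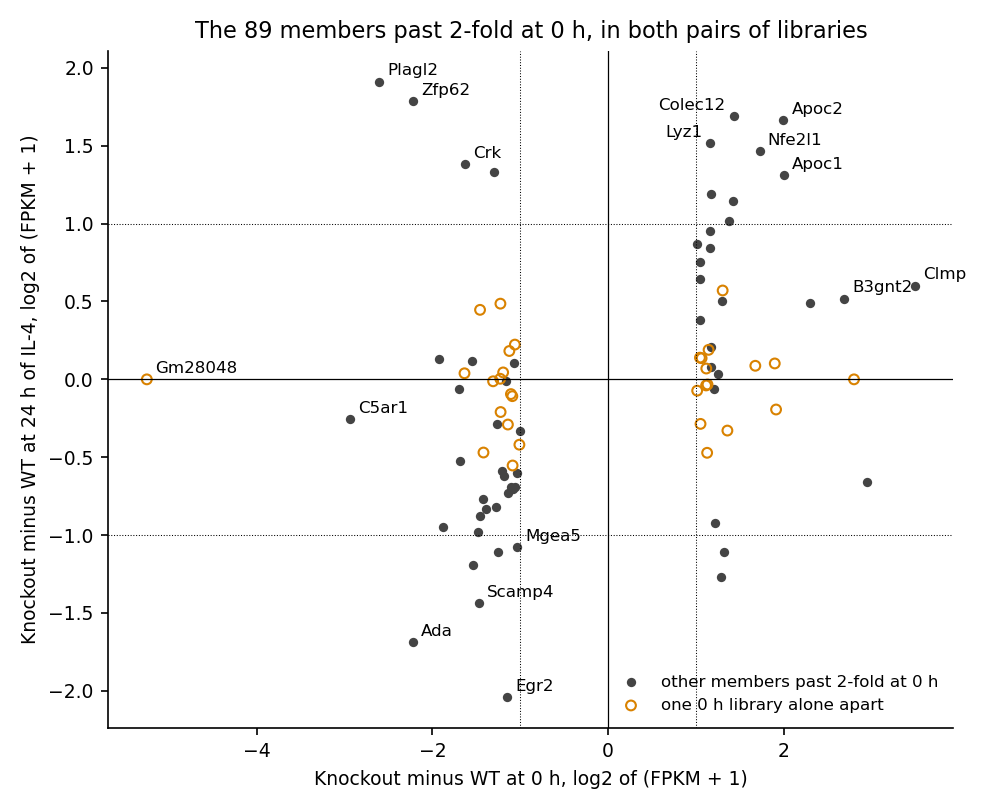
Each point is 1 of the 89 genes past 2-fold at 0 h, with its log2 difference between OGT knockout and WT at 0 h on the x axis and at 24 h of IL-4 on the y axis; open orange points are the genes for which 1 library at 0 h stood apart from the other 3, and dotted lines mark 2-fold. Apoc2, Colec12 and Nfe2l1 at the upper right and Ada and Egr2 at the lower left are past 2-fold at both times, and Plagl2, Zfp62 and Crk lie at the upper left.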

How the data were processed

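The authors deposited 1 table of FPKM values for 52550 Ensembl genes in 4 libraries. STAR and StringTie are named for GRCm38 (mm10), per the submitters' processing notes; the table's header names no unit, and FPKM was read from the values and from StringTie. Tool versions, annotation release and strandedness: not given in the sources used here. Depth is not stated; it was estimated from the FPKM of long single-exon genes, taking the most common product of FPKM and length as 1 fragment.

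Symbols, gene types, exons and positions came from GENCODE M21, promoter windows from RefSeq (GRCm38.p6). Differences are log2 ratios of FPKM + 1, computed with Python 3.11.15 and pandas 2.3.3, checked on simulated data; no test was possible with 1 library a group. The genes named are the 15 largest differences in each direction without predicted genes, Ogt, Mgea5, Apoc2, Nfe2l1 and Ada, and up to 6 members of each of 40 pathway lists, 28 symbol families or 13 marker lists; other genes named (among them the nearest to a limit, the other members past 2-fold, and members near WT) were chosen after their values were seen. The members and lists were chosen with earlier results of these data known. Alternatives varied the pseudocount (0.1 or 5), the floor (1, 20 or 5 FPKM in both libraries), the scaling and overlapping genes.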

Additional observations from a re-analysis of the deposited data

Results flagged for a closer look

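For 6 genes the difference between knockout and WT was past 2-fold at 0 h and past 2-fold in the opposite direction at 24 h of IL-4. Plagl2 was at −2.60 at 0 h and 1.91 at 24 h, Zfp62 at −2.22 and 1.79, Crk at −1.63 and 1.38, and Map2k7, a kinase gene of the JNK pathway, at −1.30 and 1.33. Golph3l, a Golgi phosphoprotein gene, was at 1.29 and −1.27, and Rnf6 at 1.32 and −1.11. Each value rests on 1 library a group, so the difference between the times was not tested. Map2k7 also shares exons with Gm49320 on the same strand. At 0 h the summed estimated fragments of this pair were 36.4% of WT. After IL-4, the WT library had Gm49320 at 3.75 FPKM beside Map2k7 at 2.96. The knockout library had them at 0 and 8.97. The 24 h value of Map2k7 thus depends on how fragments were divided between them, and the part of this in its reversal was not tested.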

How the results depend on the processing

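No paired analysis was possible because each group has 1 library. The 41 higher and 48 lower genes became 14 and 17 with a pseudocount of 5, 20 and 24 with 5 FPKM required in both libraries, 15 and 19 at 20 FPKM or more, and 21 and 31 without genes that overlap another. Without the genes for which 1 library stood apart, chosen after seeing the data, 26 were higher. In these first 4 settings, in the same order, 10, 16, 13 and 17 of the higher genes lay above 0 at 24 h, against 28; 9, 17 and 13 of the lower genes lay below 0 in the first 3, against 33. The 145 genes 1.5-fold higher became 88 with a pseudocount of 5, 66 at 20 FPKM or more and 88 without overlaps. Members at least 1.5-fold lower in the knockout at 0 h, 167 as reported, became 83 with a pseudocount of 5, 103 with both libraries at 5 FPKM, 56 at 20 FPKM or more and 277 at 1 FPKM or more. Fewer or more genes were counted under the floors by construction.

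List medians moved by less than 0.1 under both rescalings and both pseudocounts for all 40 lists. The median-ratio rescaling divided the 0 h libraries by 0.9965 (WT) and 0.9636 (knockout), too little to move any list by 0.1. Some medians nearer to 0 than that changed sign under it. Oxidative phosphorylation went from −0.04 to 0.009 and the unfolded protein response list from −0.02 to 0.02, while the interferon list went from 0.33 to 0.38. Without overlapping genes the O-GlcNAc list changed sign from −0.14 to 0.017, the chemoattractant receptors came to 0.017, the chemokine ligands to −0.49, the cholesterol list to −0.18, the IL-4 list to −0.52 and the macrophage lineage list to 0.046. With 5 FPKM in both libraries the IL-4 list came to −0.065. At 20 FPKM or more the purine list came to 0.16, the IL-4 list to −0.064 and the chemokine ligands to −0.49. The chemokine ligands came to −0.22 at 1 FPKM or more. They came to 0.033 without the markers of neutrophils, monocytes, mast cells, basophils, eosinophils, megakaryocytes, platelets and stromal fibroblasts. For all of these the cause was not tested. Of the 58 genes past 2-fold among 419 recomputed singly, 32 came under 2-fold with a pseudocount of 5. A single library a group limits every value here, and depth adds counting error that is largest for the genes near 5 FPKM.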
